A study of Aedes albopictus with 6 samples.

Results

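Circular RNAs (circRNAs) of 3 genes of lipid synthesis and storage were examined in the Asian tiger mosquito, Aedes albopictus. The genes encode fatty acid synthase (LOC109419595), an acyl-CoA Delta(11) desaturase-like protein (LOC109412434) and lipid storage droplets surface-binding protein 1 (LOC109413900), by the product names in the deposited table. They are 3 of the 4166 host genes listed and account for 29 of the 8690 circRNAs, found by the host gene given for each circRNA. The genes were chosen with their junction reads by sex in view, so female and male values of these genes are given as a description, with no test. Whole bodies of virgin females and virgin males of the Foshan strain, aged 2 days, were profiled in 3 pools of 30 mosquitoes per sex. Ribosomal RNA was removed and linear RNA was digested with the exonuclease RNase R before sequencing. A circRNA was counted by reads across its back-splice junction, where a downstream splice site is joined to an upstream one.

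Fatty acid synthase is the large multi-domain enzyme that builds saturated fatty acids from acetyl and malonyl units. Acyl-CoA desaturases put a double bond into such chains, and the resulting fatty acids go into membranes, stored fat and, in several insects, lipids of the body surface. Stored fat lies as triacylglycerol in lipid droplets of the fat body, and lipid storage droplets surface-binding protein 1 is the perilipin that coats these droplets, known from Drosophila to control the access of lipases. In female mosquitoes the lipid stores of the fat body supply the developing eggs.

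The libraries held 13322 to 17197 junction reads in females and 21624 to 27257 in males, of which 3.04% to 4.04% had no host gene. Levels are junction reads per 10000 of the library, scaled by TMM factors, and are given as mean ± SD over 3 libraries per sex. The 3 genes together held 941 junction reads, 0.777% of the total. Junction reads measure the circRNA and not the linear messenger RNA of a gene, and in whole bodies fewer cells of a type and less RNA per cell cannot be told apart. The series design calls the pools biological replicates without saying how they were reared. The p-values set the difference between the sexes against the spread between these libraries.

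The 3 genes differed in how their circRNAs were made up. Fatty acid synthase listed 18 circRNAs with scattered ends, whereas the desaturase-like gene listed 9 and the droplet protein gene 2, with nearly all reads on a single circRNA each. Of all 29 circRNAs, 28 were labelled with both ends in an exon, and 1 circRNA of the desaturase-like gene was labelled intron to exon. The label gives where the ends lie. Splice site motifs at the ends were not looked at. In 1 library only were 13 of the 18 circRNAs of fatty acid synthase, 6 of the 9 of the desaturase-like gene and 0 of the 2 of the droplet protein gene. Over all circRNAs listed, 43.7% had reads in 1 library only.

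**Figure D1:**
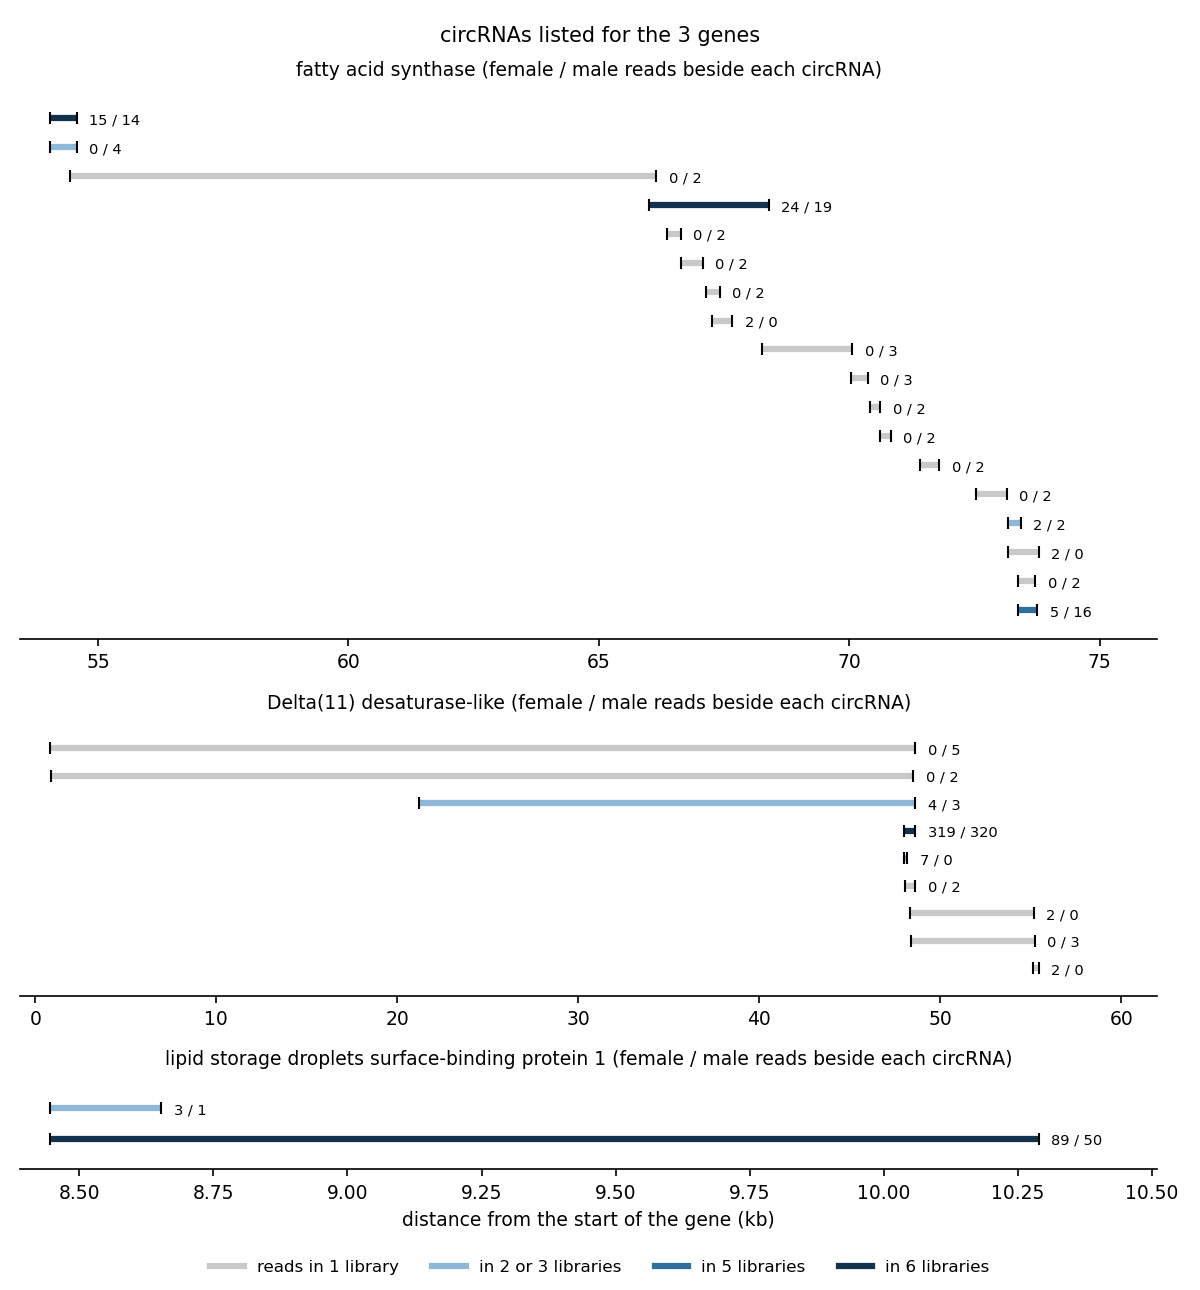
Each bar is a circRNA from its start to its end, as distance in kilobases from the start of the gene, with ticks at both ends, the shade giving the number of libraries with reads, and female reads before male reads beside it. The 18 circRNAs of fatty acid synthase are spread along the last part of the gene, whereas a single circRNA of the desaturase-like gene carries 319 female and 320 male reads.

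The circRNAs of fatty acid synthase lay between 54039 and 73779 bases from the start of a gene of 75426 bases (contig NW_021839020.1, 11307191 to 11382616, plus strand, positions as in the deposited table). All of them thus fell in the stretch from 71.6% to 97.8% of the gene. Their 18 starts took 17 distinct positions and their 18 ends also 17. In 14 of the 18, neither the start nor the end was shared with another circRNA of the gene, and these 14 held 90 of the 129 reads (69.8%). When ends within 5 bases counted as the same, 12 circRNAs and 51.9% of the reads remained without a shared end. In 14 circRNAs the spliced length was within 1 base of the distance between the ends, so that no intron lay inside. The spliced lengths ran from 195 to 2265 bases.

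Among the 310 host genes with at least 5 circRNAs, the median share of circRNAs with neither end shared was 20%, with quartiles of 0% and 40%. With ends matched exactly, fatty acid synthase stood at 77.8%, and 14 of these host genes had a higher share. With ends within 5 bases, 12 of its 18 circRNAs had no shared end. The other host genes were not compared at that setting. The share of circRNAs of fatty acid synthase in 1 library only, 72.2%, compared with a median of 40%, and 20 host genes lay above it. For the desaturase-like gene these shares were 55.6% and 66.7%, but its circRNAs without a shared end held only 16 of 669 reads (2.39%). Of the 14 circRNAs of fatty acid synthase without a shared end, 2 recurred in several libraries and held 64 of the 90 reads, and the other 12, each in 1 library, held 26. The leading circRNA of fatty acid synthase is among these 14, whereas that of the desaturase-like gene shares its end with a minor circRNA and is not counted there.

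The 3 most abundant circRNAs of fatty acid synthase came from different places in the gene. The first (11373196 to 11375587) had a spliced length of 2265 bases, enclosed about 126 bases of intron and had 43 reads, 33.3% of the gene's reads. It had 19, 3 and 2 reads in female replicates 1, 2 and 3, and 3, 8 and 8 reads in male replicates 1, 2 and 3. Female replicate 1 alone thus gave 19 of the 24 female reads, where this circRNA made up 82.6% of the gene's reads (95% exact binomial interval 61.2% to 95.05%). In the other 5 libraries it made up 12.5% to 27.6%. Without female replicate 1 it held 24 of 106 reads and was no longer the leading circRNA, since the next one then had 25.

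That next circRNA (11361230 to 11361769), of 538 bases and without an inner intron, was found in all 6 libraries. It had 4, 2 and 9 reads in female replicates 1, 2 and 3, and 6, 6 and 2 reads in male replicates 1, 2 and 3. The sexes overlapped. A circRNA with the same end and a start 4 bases away (11361234 to 11361769) had 0 female reads and 4 male reads, in 2 libraries. The circRNA nearest the end of the gene among the recurrent ones (11380563 to 11380946; 383 bases) had 0, 2 and 3 reads in female replicates 1, 2 and 3, and 5, 6 and 5 in male replicates 1, 2 and 3. Of these, 16.3% of the gene's reads, 5 were female and 16 male. A start 5 bases away and another end (11380558 to 11380902) had 2 male reads.

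The other 15 circRNAs of fatty acid synthase had 2 to 4 reads each. The 13 found in 1 library only held 28 reads, 4 in females and 24 in males. By library, 0, 1 and 1 of the 13 came from female replicates 1, 2 and 3, and 1, 5 and 5 from male replicates 1, 2 and 3. Male replicates 2 and 3 were also the most deeply sequenced libraries. Whether depth accounts for this spread was not tested. In all, 12 of the 18 circRNAs had reads in males only, 2 in females only and 4 in both sexes. Over all circRNAs listed, 3270 of 8690 had reads in males only and 1674 in females only. Some of the short circRNAs overlapped by a few bases at their ends, as in a pair where one ended at 11373828 and the next started at 11373825, and another where one ended at 11377806 and the next started at 11377800.

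The desaturase-like gene (contig NW_021837711.1, 28264135 to 28320678, plus strand) ranked number 10 of all host genes by junction reads, with 669. One circRNA (28312101 to 28312759), of 577 bases after removal of 80 or 81 bases of intron, held 639 of them (95.5%). In female replicates 1, 2 and 3 it had 140, 94 and 85 reads, which correspond to 86.8, 55.8 and 65.6 per 10000. In male replicates 1, 2 and 3 it had 71, 108 and 141 reads, or 34.3, 44.8 and 54.8 per 10000. Each female library thus lay above each male library on the scaled level, by a narrow margin between female replicate 2 and male replicate 3. Its share of the gene's reads ran from 92.2% to 98.8% in females and from 89.9% to 98.6% in males. On the opposite strand the same positions were listed with 2 female reads and 0 male reads.

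The other 8 circRNAs of the desaturase-like gene had 2 to 7 reads each. All but the one nearest the end of the gene (28319234 to 28319562) had a start or an end within or at the edge of the leading one. The circRNA labelled intron to exon (28285353 to 28312759) shared its end and had 4 female reads and 3 male reads. Another (28312124 to 28312306; 182 bases) lay wholly inside the leading circRNA, with 6, 0 and 1 reads in female replicates 1, 2 and 3 and no read in males. A pair started near the beginning of the gene (28264945 and 28264994) and spanned 47794 and 47641 bases, with 5 and 2 reads, all in males. Each came from a single library, male replicate 1 for the first and male replicate 2 for the second.

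The droplet protein gene (contig NW_021838732.1, 2716247 to 2737740, plus strand) listed 2 circRNAs that shared their start at 2724692. The longer (end 2726536), of 652 bases after removal of about 1192 bases of intron, held 139 of the 143 reads (97.2%). It had 46, 20 and 23 reads in female replicates 1, 2 and 3, and 11, 23 and 16 reads in male replicates 1, 2 and 3. The shorter (end 2724900; 207 bases) had 3 reads in female replicate 3 and 1 in male replicate 1.

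**Figure D2:**
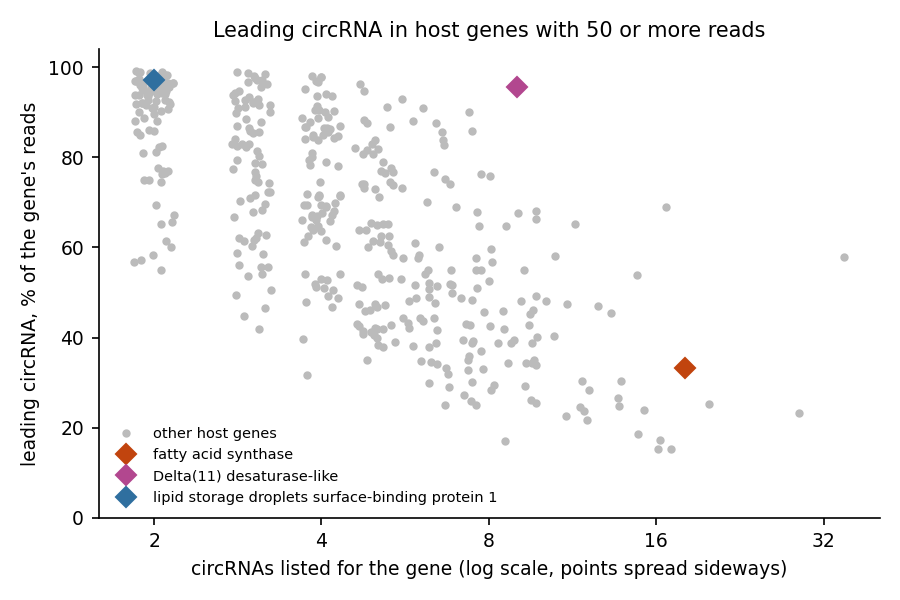
For each of 458 host genes with at least 50 reads and 2 or more circRNAs, the share of the gene's junction reads in its leading circRNA (%) is set against the number of circRNAs listed (log scale). Grey points are the other host genes and diamonds the 3 lipid genes, at 33.3% for fatty acid synthase, 95.5% for the desaturase-like gene and 97.2% for the droplet protein gene.

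Set against other host genes, the 3 genes thus lay at different ends. Over 458 host genes with at least 50 reads and 2 or more circRNAs, the leading circRNA held a median of 69.4% of the reads (quartiles 49.3% and 88.6%). For fatty acid synthase the share was lower than in 423 of them. In 20 host genes the share was higher than in the droplet protein gene, and in 43 higher than in the desaturase-like gene.

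Summed over its circRNAs, the droplet protein gene had the largest difference between the sexes of the 3 genes and fatty acid synthase the smallest. The droplet protein gene stood at 28.5, 11.9 and 20.1 junction reads per 10000 in female replicates 1, 2 and 3, and at 5.80, 9.53 and 6.21 in male replicates 1, 2 and 3. The means were 20.1 ± 8.32 in females and 7.18 ± 2.05 in males (SD, n = 3 each), 2.81-fold higher in females. Female replicate 1 was the highest and male replicate 1 the lowest. The log2 ratio of 1.49 became 1.15 without female replicate 1 and 1.76 without female replicate 2.

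For the desaturase-like gene, summed levels were 90.5, 60.6 and 66.4 in female replicates 1, 2 and 3, and 38.2, 46.8 and 55.5 in male replicates 1, 2 and 3. Means were 72.5 ± 15.9 in females and 46.8 ± 8.68 in males, 1.55-fold higher in females. In raw reads the sexes were near equal, 334 in females and 335 in males, from female libraries that held fewer junction reads. The gene ranked number 5 among host genes by female reads and number 15 by male reads.

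For fatty acid synthase, levels were 14.3, 6.53 and 12.3 in female replicates 1, 2 and 3, and 7.73, 14.1 and 11.3 in male replicates 1, 2 and 3. The means, 11.04 ± 4.02 in females and 11.03 ± 3.19 in males, differed by far less than the SD of either sex. Female and male libraries did not overlap in the desaturase-like and the droplet protein gene, 2 of the 3 genes, and overlapped in fatty acid synthase. Among all 870 host genes with enough reads for a test, the female libraries all lay above the male ones in 11.7%, and nothing is read from the members' count beside it.

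**Figure D3:**
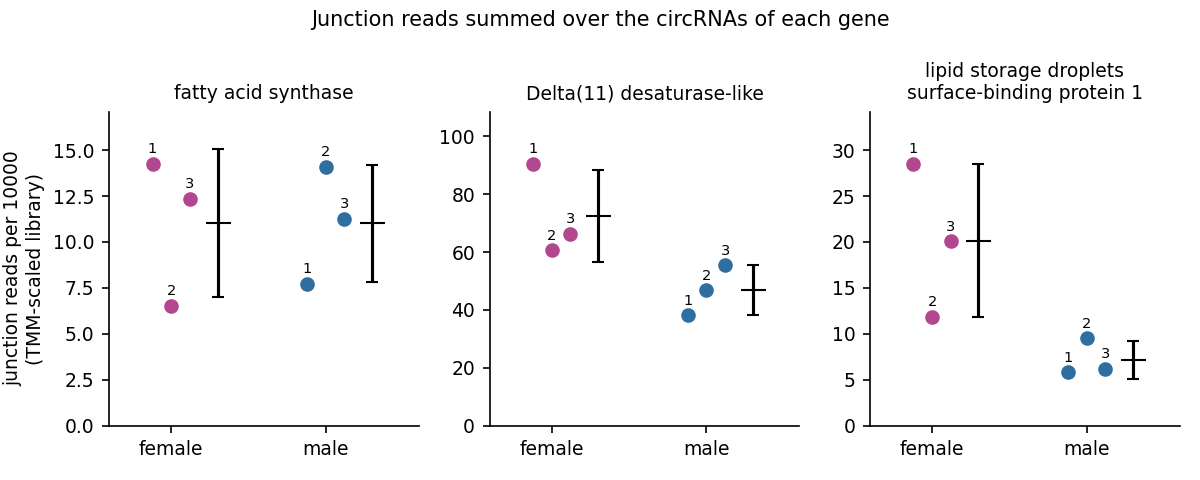
Points are the libraries, numbered by replicate, as junction reads per 10000 of the TMM-scaled library summed over the circRNAs of each gene, with females left of males; the bar beside them is the mean ± SD of 3 libraries. Female libraries lie at 11.9 to 28.5 against 5.80 to 9.53 in males for the droplet protein gene, and at 6.53 to 14.3 against 7.73 to 14.1 for fatty acid synthase.

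Marker lists of tissues, matched by words in product names, were read beside these values. For the fat body, the main site of lipid storage, 11 host genes had reads (hexamerins, apolipophorins, transferrins and a vitellogenin). Their summed level ran from 8.31 to 12.3 per 10000 in female libraries and from 8.15 to 17.4 in male libraries; the 1 tested did not pass, and 2 also belong to the list of lipid genes. For the midgut, 8 host genes (trypsins, a chymotrypsin, a maltase and a carboxypeptidase) summed to 12.3 to 22.9 in females and 2.49 to 4.83 in males, and the 1 tested, a trypsin, was higher in females. Acyl-CoA reductases and elongases, taken here as the list for oenocytes and cuticle lipid, had reads in 20 host genes. Their sums were 10.1 to 16.1 in females and 26.1 to 30.3 in males. All 20 are also in the lipid list, and the 1 tested did not pass. Axonemal dyneins, the sperm list, had reads in 2 host genes, with sums of 0 to 0.77 in females and 0 to 2.07 in males. No marker of the ovary list had a read. The part of these tissues in the female and male levels of the 3 lipid genes was not tested.

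At least 1 other gene with a like product name was listed for each of the 3 genes. The table lists a fatty acid synthase-like gene (LOC115260991) on another contig (NW_021837228.1, 9318 to 49169, minus strand), with 4 circRNAs and 38 reads. Of its circRNAs, 1 (9439 to 9978) had the same span, 539 bases, as the recurrent one of fatty acid synthase at 11361230, with 6 female and 15 male reads. Another (9439 to 9974) had the span of 535 bases found at 11361234, with 7 female and 2 male reads. The pair of ends 4 bases apart was thus present at both genes. Reads from near-identical copies may be split between them by the counting, so the values of these circRNAs are uncertain. Pooled over libraries, the like-named gene took 23.1% of the reads of the pair in females (15 of 65, exact interval 13.5% to 35.2%). In males it took 22.5% (23 of 102, 14.9% to 31.9%). The split varied widely between libraries. In female replicates 1, 2 and 3 it had 11, 3 and 1 of 34, 14 and 17 reads of the pair. In male replicates 1, 2 and 3 it had 15, 4 and 4 of 31, 38 and 33. The intervals cover counting error only and not this spread. Summed over both genes, levels were 14.2 ± 6.44 in females and 14.5 ± 1.52 in males. A further fatty acid synthase-like gene (LOC109407207) had 1 circRNA with 2 reads, all in male replicate 1, and was left out of this sum.

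The second droplet protein gene (LOC109421118) lay on the same contig, 789733 bases downstream (3527473 to 3546863, plus strand). Its only circRNA (3536740 to 3538330) had the same spliced length, 652 bases, as the leading one of LOC109413900, but a span of 1590 bases in place of 1844. It had 3, 2 and 0 reads in female replicates 1, 2 and 3, and 5, 9 and 5 reads in male replicates 1, 2 and 3. Whether LOC109421118 is a separate gene or a copy made in the assembly cannot be read from the files, and reads of near-identical copies may be split between them, so its values and the split are uncertain. As counted, the direction was opposite to that of LOC109413900, with 1.02 ± 0.94 per 10000 in females and 2.70 ± 0.93 in males. This gene took 5.15% of the reads of the pair in females (5 of 97; exact interval 1.69% to 11.6%) and 27.1% in males (19 of 70; 17.2% to 39.1%). The intervals cover counting error only. Summed over both genes, levels were 21.2 ± 8.70 in females and 9.88 ± 2.93 in males, 2.14-fold higher in females. In this sum the sexes overlapped, unlike in LOC109413900 alone. Female replicate 2 (11.9 from LOC109413900 and 1.19 from LOC109421118) lay below male replicate 2 (9.53 and 3.73).

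**Figure D4:**
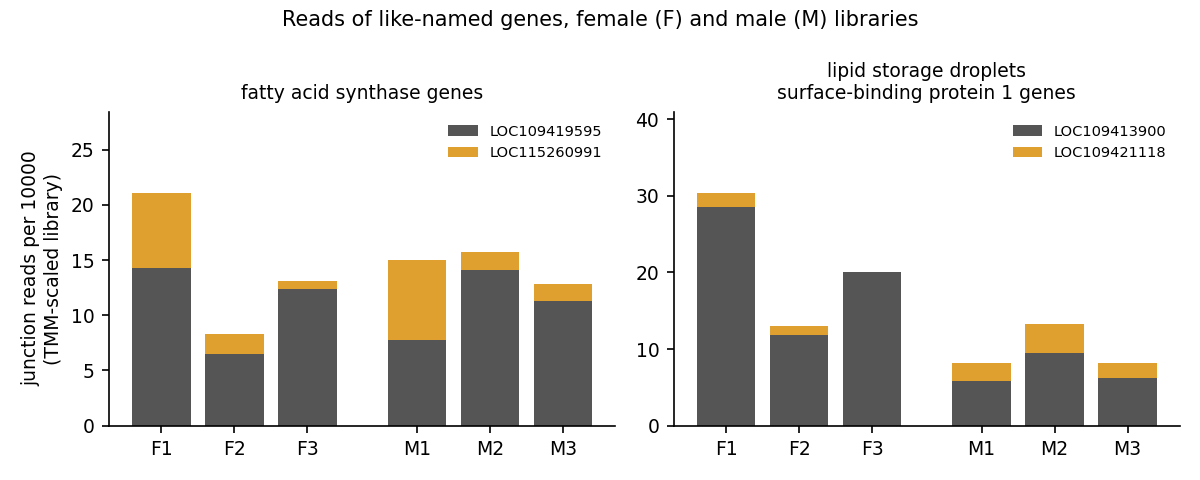
Bars are junction reads per 10000 of the TMM-scaled library in each female (F) and male (M) library, with the reads of the like-named gene stacked on those of the gene described. LOC109421118 adds 0 to 1.86 in female libraries and 1.94 to 3.73 in male libraries, the reverse of LOC109413900.

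The second desaturase-like gene (LOC109430325) ended 69739 bases upstream of LOC109412434 on the same contig. It listed 1 circRNA (28184496 to 28184983; 408 bases) with no female read and 8 male reads, and no circRNA of LOC109412434 had its span.

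Most of the other host genes of lipid metabolism were sampled too thinly for a test. Words in product names picked 115 host genes besides the 3, in 7 groups, and 28 had enough reads for the test. Some matched by a word alone. Among the tested regulators these were insulin gene enhancer protein isl-1 (LOC109412364) and an insulin-like growth factor-binding acid labile subunit gene (LOC109410089). A stricter list without such matches kept 26 of the 28. After Benjamini-Hochberg adjustment over the 870 host genes tested by edgeR (quasi-likelihood), 0 of the 28 were higher in females and 1 was lower. Over all host genes, 2.53% were higher in females and 2.3% higher in males at the threshold of 0.05. The median log2 fold change of female over male was -0.10 in the 28, with 14 above 0 and 14 below, against -0.05 in all 870. At an unadjusted p under 0.05, 0 of the 28 were higher in females and 3 lower, beside 8.74% higher and 9.43% lower over all 870. DESeq2 also called 0 higher in females and 1 lower.

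The gene that passed was a 1-acylglycerol-3-phosphate O-acyltransferase Pnpla3-like gene (LOC109399662), of the patatin-like family that acts on lipid droplets in mammals. It had 110, 119 and 48 reads in female replicates 1, 2 and 3, and 208, 231 and 272 reads in male replicates 1, 2 and 3. Its level was 58.6 ± 18.7 per 10000 in females and 101 ± 4.93 in males. Female levels fell to 0.587 times the male level in the fit, with all male libraries above all female ones (log2 fold change -0.77, SE 0.20, edgeR adjusted p = 0.013). It missed the threshold without male replicate 2, with a log2 fold change of -0.85 (edgeR adjusted p = 0.068, the highest over its alternatives, which began at 7.4e-05).

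**Figure D5:**
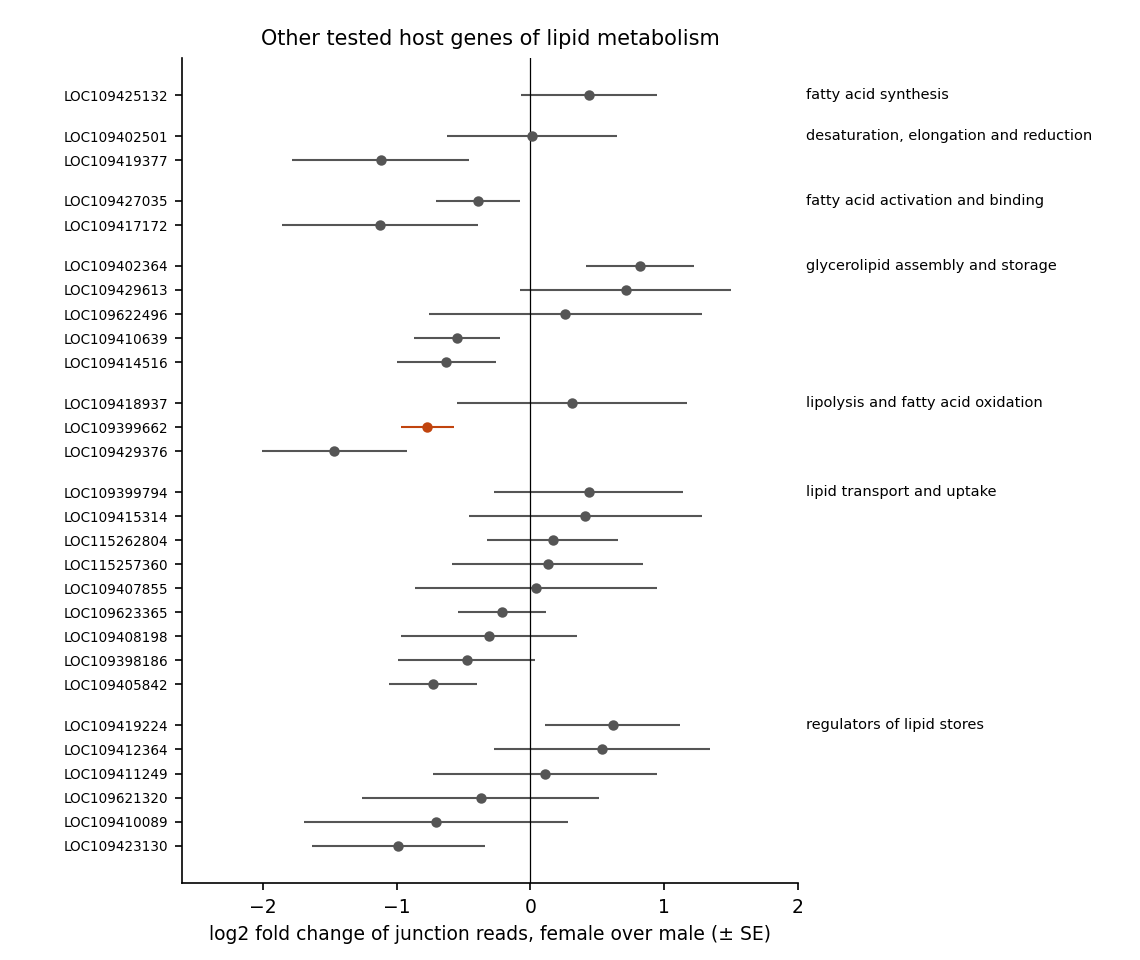
Points are log2 fold changes of junction reads, female over male, for the 28 other host genes of the word-matched lipid list with enough reads. Bars are 1 SE, and genes are grouped by role from fatty acid synthesis at the top to regulators of lipid stores. The Pnpla3-like gene (LOC109399662), in colour, is the one that passed, at -0.77; the others range from -1.46 to 0.82.

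By role, group medians lay on both sides of 0, and no other gene of the list passed edgeR's test. In fatty acid synthesis the tested gene was ATP-citrate synthase (LOC109425132), which supplies acetyl-CoA, at 9.09 ± 2.74 per 10000 in females and 6.63 ± 1.59 in males (adjusted p = 0.72 by edgeR). Among genes of desaturation, elongation and reduction, 2 of 23 were tested, and bubblegum (LOC109402501), a very long-chain fatty acid ligase, averaged 5.88 ± 3.74 in females and 5.70 ± 1.59 in males. Both genes tested in the word-matched group of fatty acid activation and binding had log2 fold changes under 0. Bubblegum, also a fatty acid ligase, was counted in the group before, with a log2 fold change of 0.01. Long-chain fatty acid transport protein 4 (LOC109427035), of the activation group, stood at 15.7 ± 1.61 in females and 20.8 ± 3.76 in males. Its 10 circRNAs had 218 reads, and the leading one held 55.0% of them. In glycerolipid assembly and storage, 5 of 18 were tested. Mitochondrial glycerol-3-phosphate dehydrogenase-like (LOC109414516), which links glycerol phosphate to respiration, stood at 11.2 ± 3.80 in females and 17.6 ± 2.78 in males.

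ABHD12 (LOC109410639), listed in the same group and known from mammals as a lipase of lysophosphatidylserine, stood at 21.7 ± 13.6 in females and 32.2 ± 8.32 in males. It had 21, 63 and 19 reads in female replicates 1, 2 and 3, and 82, 56 and 87 in male replicates 1, 2 and 3. Female replicate 2 was the highest female library, and without that library the gene passed, with a log2 fold change of -1.26 in place of -0.55 (edgeR adjusted p = 0.017, against 0.38 with all libraries). In lipid transport and uptake, 9 of 22 were tested and 5 had a log2 fold change above 0. Low-density lipoprotein receptor-related protein 1 (LOC109623365) averaged 20.8 ± 7.46 in females and 24.5 ± 10.8 in males. The low-density lipoprotein receptor-like gene (LOC109405842), with 14 circRNAs, averaged 15.5 ± 4.42 in females and 25.7 ± 9.29 in males. Of 6 tested regulators, a forkhead box protein O-like gene (LOC109419224), a transcription factor that insulin signalling holds back, stood at 10.8 ± 5.33 in females and 6.91 ± 1.91 in males. Another forkhead box protein O-like gene (LOC109423130) went the other way, at 4.07 ± 3.55 in females and 8.13 ± 3.22 in males.

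Likeness of pattern was measured as Pearson's r of log2(level + 0.5) over the 6 libraries, among tested host genes. The host genes most like fatty acid synthase were Mical-like (LOC109622444; r = 0.97), glutathione hydrolase 1 proenzyme-like (LOC109416314; 0.95) and FAD synthase-like (LOC109411532; 0.94). For the desaturase-like gene they were C-terminal-binding protein-like (LOC109429301), LOC109399531 and LOC115254075, each at 0.97. For the droplet protein gene they were rho guanine nucleotide exchange factor 18 (LOC109423353; 0.98), Rab-11B-like (LOC109415406; 0.96) and nuclear factor of activated T-cells 5-like (LOC115258681; 0.95). These values are the highest among all tested host genes, over 6 points that share library depth, and no p is given.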

How the data were processed

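Junction counts of 6 whole-body libraries were used. Per the labels' protocols, RNA was depleted of ribosomal RNA and digested with RNase R, and directional libraries were sequenced in pairs. Per the submitters' processing notes, Bowtie2 2.1.0 was used; which circRNA caller, build and annotation the authors used is not given in the sources used here. The authors' deposited table gives raw junction counts, as whole numbers; its 30393 lines were collapsed to 8690 circRNAs by contig, start, end and strand. The lowest maximum over libraries was 2 reads for any circRNA. The spliced length per circRNA is the deposited value of the authors, and it was not settled if the first base of a start is 0 or 1. The deposited CPM values, TMM-normalised by the authors, hold 764 circRNAs, 3 of them of the lipid genes; multiplied by 1 factor per library, 100% came out as whole reads within 0.01, and the factors served as an alternative scaling. That table adds no reads, so no further count test was run on it.

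Counts were added up by host gene, without the circRNAs that had none (3.04% to 4.04% of reads), and modelled in edgeR 4.0.16 under R 4.3.3 (TMM scaling, filterByExpr with a minimum count of 5 and total of 15, quasi-likelihood F test of sex, Benjamini-Hochberg, threshold 0.05). SEs were taken from the fold change and F. DESeq2 1.42.0, other size factors, no filter, exon-exon circRNAs alone, leaving out each library and a replicate block were alternatives. Same-numbered libraries of the sexes were not said to be paired, so the main fit did not pair them. Replicate libraries varied beyond sampling noise, with chi-square over its degrees of freedom at 2.17 to 3.30. Intervals are exact binomial (Clopper-Pearson) at 95%; they cover counting error only, since the reads carry no molecular identifiers. Figures used matplotlib 3.10.9 in Python 3.11.15.

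The genes and lists were chosen with earlier results of these data known. Named list genes were those called, the 5 uncalled with most reads and the one with most reads per group. A few others were named beside them for contrast. The 3 most similar host genes per member were named by Pearson's r. A gene matching several groups counted in the first. Marker words were narrowed after the matches were seen, to leave out enzymes that share a word.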

Additional observations from a re-analysis of the deposited data

How the results depend on the processing

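Calls over all host genes (22 higher in females, 20 lower) ran from 6 to 26 and from 6 to 29 when 1 library was left out, and were 6 and 6 without male replicate 2. Without male replicate 1, 13 were lower in females. Without a filter on low counts 13 were higher in females, from 4166 genes tested. In the lipid list 0 were higher in females under every alternative run, and the number lower ran from 0 (without male replicate 2) to 2 (without female replicate 2). Its median log2 fold change, -0.10, ran from -0.34 to -0.14 when 1 library was left out, with more genes passing the filter, and was -0.45 without a filter; with a stricter list, chosen after seeing the data, it stayed within the spread between replicates. Ratios of the 3 genes moved by less than that spread under all alternatives run: from -0.22 to 0.27 (log2) for fatty acid synthase, 0.44 to 0.77 for the desaturase-like gene and 1.15 to 1.76 for the droplet protein gene with 1 library left out. The largest move for fatty acid synthase came with only circRNAs in 2 or more libraries, where its log2 ratio was 0.38. Sums with the like-named genes were added after seeing the data. The share of reads of fatty acid synthase without a shared end was 51.9% with ends within 5 or 20 bases. Under a replicate block 28 host genes were higher in females and 24 lower, within 1.5 times the unblocked counts; deviations of same-numbered libraries correlated at -0.01 to 0.05. Most circRNAs of fatty acid synthase had 2 to 4 reads in all, and a count of 0 in a library allows up to 3 reads, so their absence from a library cannot be told from a low level.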
